A study of Mus musculus with 14 samples.

Results

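HOX genes encode homeodomain transcription factors that give cells a position along the head-to-tail axis of the embryo. In mammals they lie in 4 clusters, Hoxa, Hoxb, Hoxc and Hoxd, and genes at the same place in different clusters carry the same paralogue number, from 1 at the end used in the head and neck to 13 at the end used in the tail and limb tips. Fibroblasts taken from adult organs keep expressing a set of HOX genes that reflects where in the body they came from, and such sets are a known signature of skin site. The 38 protein-coding HOX genes examined here were chosen by name, whatever their expression, out of 48795 genes in the count table: 10 of Hoxa on chromosome 6, 10 of Hoxb on chromosome 11, 9 of Hoxc on chromosome 15 and 9 of Hoxd on chromosome 2 of the mouse genome build GRCm38.

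RNA was sequenced from fibroblasts that grew out of pieces of lung or of dorsal skin from male mice aged 8 to 10 weeks. The cells were kept unstimulated on plastic and scraped off at day 14. Wild-type C57BL/6J cultures gave 5 lung libraries (1, 23, 3, 4 and 5) and 2 skin libraries (11 and 22). Cultures from Rel -/- mice, labelled as lacking the NF-kappaB family factor c-Rel, gave 4 lung libraries (7, 8, 9 and 10) and 3 skin libraries (18, 19 and 20). Nothing in the labels ties a library to an animal, and the p-values therefore reflect variation among these libraries, which may be technical. Values by library are always listed in the order just given, in CPM (the gene's share of the library's counts, scaled to a total of 1000000) unless a per-kilobase level is named.

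Several libraries stood apart. Totals ran from 12780350 to 30987933 counts, except for wild-type skin 22 with 2663437. Among genes expressed in the same tissue (mean of at least 5 CPM), the share listed at 0 was highest in Rel -/- lung 7 (11.5%) and wild-type skin 11 (8.22%), followed by wild-type lung 4 (5.78%) and Rel -/- skin 18 (3.37%), while none of the other 10 libraries passed 0.728%. Rel itself was read at 9.42 and 9.47 CPM in Rel -/- skin 19 and 20, near the 11.5 and 10.9 CPM of wild-type skin, and at 0.0349 CPM in Rel -/- skin 18. In lung it was 6.27, 17.3, 12.9, 1.10 and 12.4 CPM in wild type and 0.0651, 4.06, 1.39 and 3.80 CPM in Rel -/-, so directions of genotype rest on the labels. Xist, expressed in female cells, was found in lung 1 (64.5 CPM) and skin 22 (732 CPM) of the wild type although the mice are described as male. Rel -/- lung 10 carries a treatment label that says skin; over the 38 HOX genes its log2(CPM + 1) values correlated with those of the other lung libraries at r between 0.777 and 0.983 and with those of skin libraries at r between 0.0052 and 0.290, a description over genes that share these libraries. All 10 fibroblast markers checked (Col1a1, Pdgfra, Vim and others) were expressed in every group. The 12 leukocyte and macrophage markers summed to 4494 to 19890 CPM in lung of wild type and 8041 to 25070 CPM in lung of Rel -/-, against 39.4 to 121 and 118 to 164 CPM in the matching skin groups. The 15 keratinocyte markers summed to 1313 to 3302 CPM in Rel -/- skin, against 35.3 to 56.7 CPM in wild-type skin and at most 39.5 CPM in lung.

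The balance of the HOX clusters differed between lung and skin cultures, and Hoxb was expressed in both. In lung, Hoxa and Hoxb genes made up nearly all HOX RNA: the Hoxa genes summed to 72.9 ± 19.2 CPM and the Hoxb genes to 97.4 ± 10.5 CPM (SD, n = 9), while Hoxc summed to 4.35 ± 5.15 CPM and Hoxd to 1.79 ± 1.19 CPM. In skin, Hoxc led with 164 ± 35.4 CPM (SD, n = 5), followed by Hoxb with 69.2 ± 23.4 CPM, Hoxa with 23.5 ± 21.5 CPM and Hoxd with 18.8 ± 11.6 CPM. The Hoxc sum did not overlap between tissues, with 1.20 to 17.4 CPM in lung libraries and 111 to 210 CPM in skin libraries. In bulk RNA, fewer cells of a type and less RNA per cell cannot be told apart, which holds for every level given here.

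**Figure D1:**
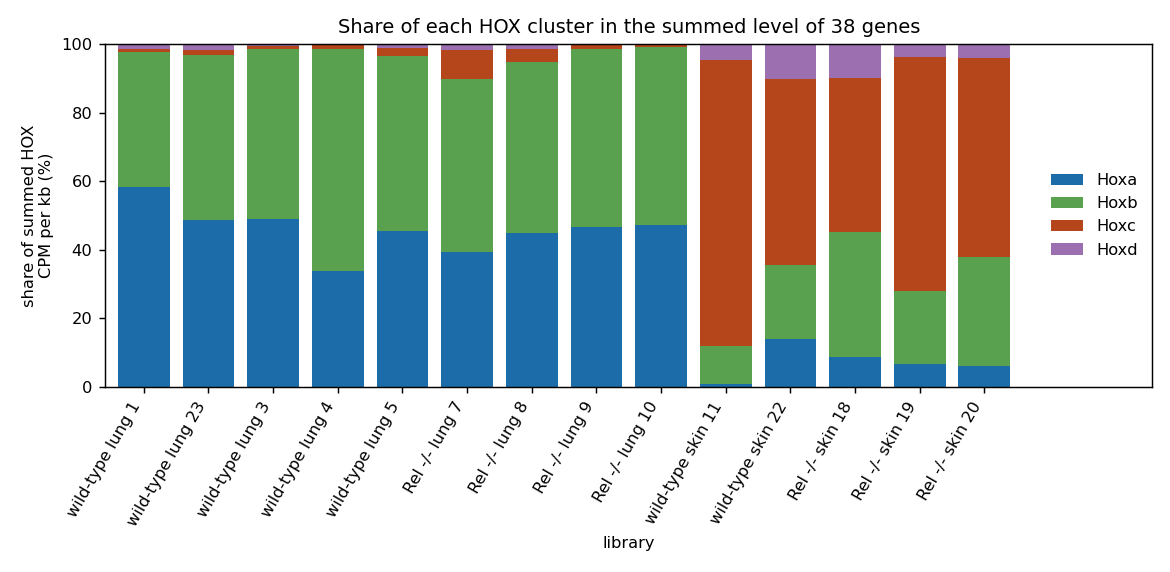
Stacked bars give, for each of the 14 libraries, the percentage of the summed CPM per kilobase of 38 HOX genes that falls in each cluster. Hoxc takes 0.580% to 8.59% in the 9 lung libraries and 44.9% to 83.5% in the 5 skin libraries.

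Expressed per kilobase of exon, so that genes can be compared with each other, the same picture held. Hoxa held 45.9% ± 6.80 and Hoxb 50.9% ± 6.54 of the summed HOX level in lung (SD, n = 9), and Hoxc held 61.9% ± 14.7 in skin (SD, n = 5). The gene with the highest per-kilobase level was Hoxa5 in every lung library, at a mean of 23.1 ± 7.93 CPM per kilobase, and Hoxc8 in every skin library, at a mean of 22.9 ± 4.62 CPM per kilobase. Genes were also grouped by position, as shares of the summed HOX CPM per kilobase. The posterior genes (paralogues 9 to 13) took 0% to 3.76% in lung libraries and 20.8% to 35.0% in skin libraries. Anterior genes (paralogues 1 to 3) took 11.8% to 24.5% in lung and 2.84% to 7.82% in skin. The central genes (paralogues 4 to 8) held the largest part in each library, from 75.5% to 87.1% in lung and from 62.1% to 74.3% in skin.

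**Figure D2:**
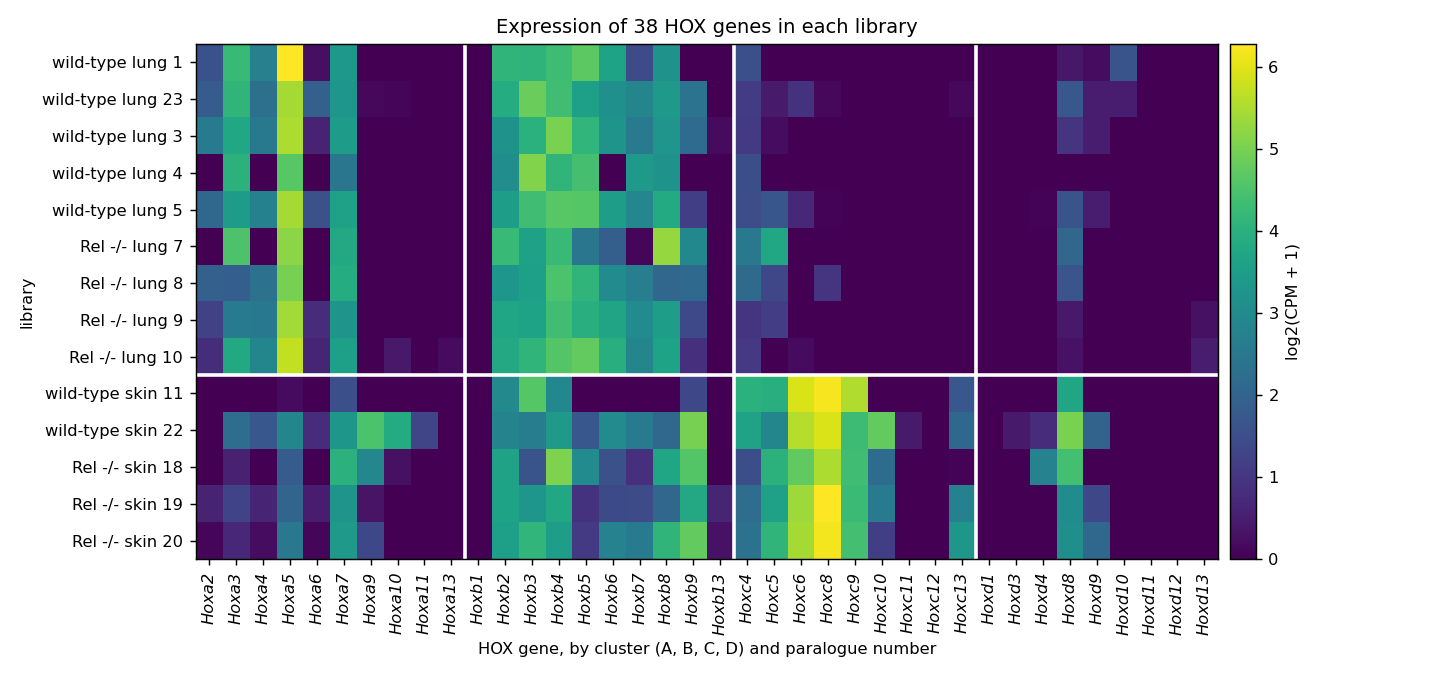
Colour gives log2(CPM + 1) of each of 38 HOX genes (columns, by cluster and paralogue number) in each of 14 libraries (rows; lung above the white line, skin below). Hoxa3, Hoxa5, Hoxa7, Hoxb2 to Hoxb5 and Hoxb8 reached 1 CPM in all 9 lung libraries, and Hoxa7, Hoxb2 to Hoxb4, Hoxb9, Hoxc4 to Hoxc9 and Hoxd8 in all 5 skin libraries.

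Not every gene was seen. Hoxb1, Hoxc12, Hoxd1, Hoxd11 and Hoxd12 had 0 counts in all 14 libraries, where 3 counts correspond to between 0.0968 and 1.13 CPM depending on the library. These 5 are among 10 genes below 1 CPM in every library; the others are Hoxa13, Hoxb13, Hoxc11, Hoxd3 and Hoxd13, whose highest value was 0.573 CPM (Hoxb13 in Rel -/- skin 19). Of the 38 genes, 26 reached a mean of 1 CPM in at least 1 group and are described below, and 25 passed the filter on low counts and were tested.

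Over both genotypes, 10 of the 25 HOX genes tested differed between skin and lung, 7 higher and 3 lower in skin (edgeR's quasi-likelihood test, Benjamini-Hochberg adjusted p below 0.05 over 16408 genes). Of all genes tested, 10.4% were called, 4.26% higher and 6.17% lower in skin. The genes higher in skin were Hoxc6, Hoxc8, Hoxc9, Hoxc10, Hoxc13, Hoxa9 and Hoxd8. Those lower in skin were Hoxa3, Hoxa5 and Hoxb5. The median log2 fold change of the 25 was -0.57, also with the genes at 0 to 3 lung counts set to their bounds or pooled ratios, and -0.07 over all genes tested. Genes that passed the filter only through the tissue where they are high had to differ, so the count describes these genes and supports nothing further. Among the genes called, these were Hoxa9, Hoxc8, Hoxc9, Hoxc10 and Hoxc13.

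**Figure D3:**
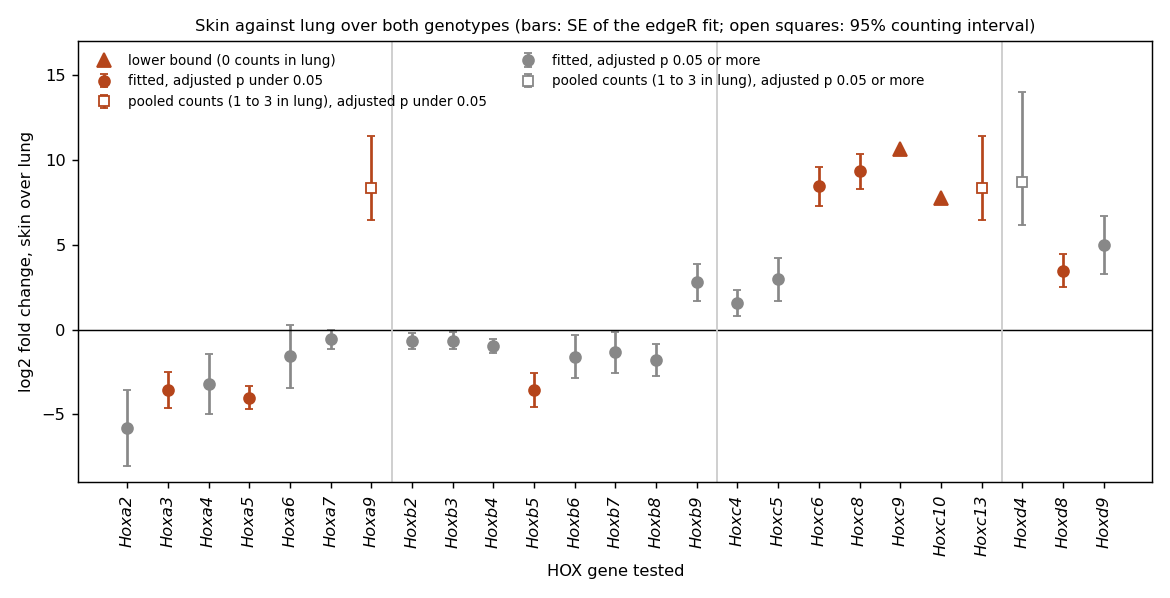
Points give the log2 fold change of skin over lung for the 25 HOX genes tested, ordered by cluster and paralogue. Filled circles are fitted values with the SE, open squares are ratios of pooled counts with a 95% counting interval, and triangles are lower bounds; Hoxc6 to Hoxc13 and Hoxa9 lie above 6, and Hoxa5 lies at -4.02.

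In the Hoxa cluster, neighbouring genes differed in their pattern between lung and skin. Hoxa5, a gene needed for lung development in the mouse, was the leading HOX gene of lung. Wild-type lung read 77.1, 42.5, 45.0, 24.3 and 42.8 CPM and Rel -/- lung 35.6, 31.1, 41.5 and 51.0 CPM. The skin libraries read 0.129 and 6.38 CPM in wild type and 2.58, 3.12 and 4.69 CPM in Rel -/-. Every lung library lay above every skin library, and the difference was -4.02 ± 0.68 (log2, SE; adjusted p = 0.00106 with edgeR's quasi-likelihood test), a 16.2-fold lower level in skin. Hoxa5 was also called in wild type alone (-4.38 ± 1.05, adjusted p = 0.0334) and in Rel -/- alone (-3.65 ± 0.83, adjusted p = 0.0154). Within a genotype the call rested on single libraries: it was lost in wild type without wild-type lung 1, 3 or 5 or wild-type skin 11 (adjusted p from 0.0584 to 0.0691), and in Rel -/- without any of the 3 Rel -/- skin libraries (0.0596 to 0.0784).

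**Figure D4:**
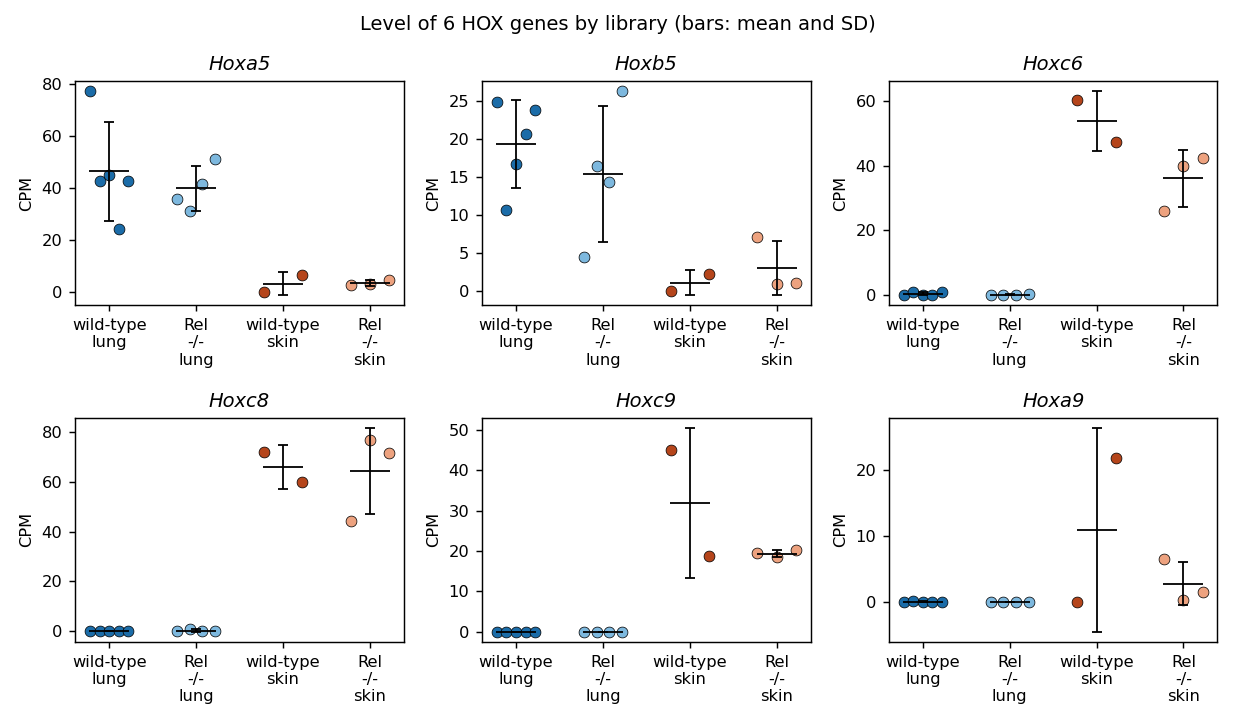
Each panel plots 1 gene's CPM by library (points) with the group mean and SD (bars) for wild-type lung (n = 5), Rel -/- lung (n = 4), wild-type skin (n = 2) and Rel -/- skin (n = 3). Hoxa5 and Hoxb5 are higher in lung; Hoxc6, Hoxc8 and Hoxc9 are higher in skin; Hoxa9 is high chiefly in wild-type skin 22, at 21.8 CPM.

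The promoters of 3 neighbours with different patterns are shown because Hoxa5 was high in lung, Hoxa7 was read in both tissues and Hoxa9 was read almost entirely in skin. Each is the stretch of 250 bases before the RefSeq start (GRCm38.p6), on the minus strand: Hoxa5 at chr6:52204588-52204837, Hoxa7 at chr6:52218574-52218823 and Hoxa9 at chr6:52227371-52227620. For Hoxa7 and Hoxa9 that start lies inside the longer gene annotated in GENCODE M21. Capitals mark CG pairs, the sites of DNA methylation.
Hoxa5: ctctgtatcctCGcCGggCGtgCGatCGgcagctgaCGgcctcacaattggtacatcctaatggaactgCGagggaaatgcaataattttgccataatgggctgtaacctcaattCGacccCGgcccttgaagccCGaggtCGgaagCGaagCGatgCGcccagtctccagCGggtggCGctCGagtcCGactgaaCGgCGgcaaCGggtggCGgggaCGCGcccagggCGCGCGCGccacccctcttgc
Hoxa7: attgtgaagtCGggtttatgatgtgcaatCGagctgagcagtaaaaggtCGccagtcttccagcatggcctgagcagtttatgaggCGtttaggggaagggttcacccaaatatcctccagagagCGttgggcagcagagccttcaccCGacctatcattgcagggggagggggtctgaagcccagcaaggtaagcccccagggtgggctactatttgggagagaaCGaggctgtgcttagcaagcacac
Hoxa9: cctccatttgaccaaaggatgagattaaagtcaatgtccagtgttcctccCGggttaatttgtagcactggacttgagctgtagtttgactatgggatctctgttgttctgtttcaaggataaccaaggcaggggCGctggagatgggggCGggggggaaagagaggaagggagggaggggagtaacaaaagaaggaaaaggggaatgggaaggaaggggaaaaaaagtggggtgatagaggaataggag
The stretch before Hoxa5 holds 28 CG pairs and 63.6% G and C, and 92.4% of the 32851 promoters of the table hold fewer CG pairs. Before Hoxa7 there are 7 CG pairs and before Hoxa9 there are 3. Over the 24 promoters that matched 22 of the 38 HOX genes, the median was 12.5 CG pairs, against 6 over all promoters. Searched on both strands, the CCAAT box (CCAAT) occurred in 58.3% of these HOX promoters and 33.8% of all. The letters TGATNNAT, a core bound by HOX proteins together with PBX proteins, occurred in 16.7% and 7.68%; of the 3 shown, the Hoxa5 stretch holds 1 CCAAT and none holds TGATNNAT. No methylation or binding was measured here, and these matches describe letters alone.

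Hoxa3, an anterior gene of the neck and pharyngeal region, also fell. In lung it read 17.8, 16.4, 12.6, 15.3 and 9.87 CPM in wild type and 22.1, 2.69, 4.99 and 13.2 CPM in Rel -/-. In skin it read 0 and 3.75 CPM in wild type and 0.488, 1.40 and 0.626 CPM in Rel -/-. Wild-type skin 22 lay above Rel -/- lung 8, so the tissues overlapped, and the difference was -3.55 ± 1.05 (log2, SE; adjusted p = 0.0407, edgeR's quasi-likelihood test). The call ended when any of 10 libraries was left out: wild-type lung 1, 23, 3 or 5, Rel -/- lung 9 or 10, wild-type skin 11, or Rel -/- skin 18, 19 or 20 (adjusted p from 0.0528 to 0.0851). About 25.4% of its exon bases overlap a gene on the opposite strand, and the strand setting of the counting is not given in the sources used here.

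Hoxa2, the most anterior Hoxa gene examined and a regulator of branchial arch patterning, was low. Its lung values were 2.00, 2.54, 5.13, 0 and 3.37 CPM in wild type and 0, 2.82, 1.35 and 0.769 CPM in Rel -/-, and its skin values were 0 CPM in all 2 and 0, 0.509 and 0.0782 CPM. The 2 lung libraries at 0, wild-type lung 4 and Rel -/- lung 7, are among those with many expressed genes at 0. Skin against lung gave -5.79 ± 2.26 (log2, SE; adjusted p = 0.129).

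Hoxa4 and Hoxa6, which flank Hoxa5, had negative differences that did not pass the test, and Hoxa6 was low in both tissues. Hoxa4 read 5.68, 3.97, 4.78, 0 and 5.84 CPM for wild-type lung, 0, 4.06, 4.86 and 6.39 CPM in Rel -/- lung, 0 and 2.25 CPM in wild-type skin and 0, 0.573 and 0.156 CPM in Rel -/- skin, with a difference of -3.20 ± 1.79 (adjusted p = 0.319). Hoxa6 read 0.196, 2.80, 0.516, 0 and 1.95 CPM for wild-type lung, 0, 0, 0.738 and 0.577 CPM in Rel -/- lung, 0 and 0.751 CPM in wild-type skin and 0, 0.382 and 0.0782 CPM in Rel -/- skin, with a difference of -1.58 ± 1.86 (adjusted p = 0.719). Without the 4 libraries with most genes at 0, Hoxa4 was called (adjusted p = 0.0253) and Hoxa2 was called (adjusted p = 0.0464). DESeq2 called Hoxa2 (0.0216) and limma-voom called Hoxa4 (0.04).

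Hoxa7 was expressed in every library of both tissues. Its lung values were 9.17, 8.89, 9.94, 4.55 and 11.2 CPM in wild type and 12.9, 13.9, 8.51 and 10.6 CPM in Rel -/-, and its skin values were 1.89 and 9.01 CPM in wild type and 15.4, 8.53 and 9.39 CPM in Rel -/-. The tissues overlapped, at -0.57 ± 0.56 (log2, SE; adjusted p = 0.639); 20.4% of its exon bases overlap a gene on the opposite strand. It was the Hoxa gene with the highest paralogue number that reached 1 CPM in each of the 9 lung libraries.

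Beyond Hoxa7, the Hoxa genes had few counts in lung. Hoxa9, a posterior gene known from limb and blood, had 2 counts over all 9 lung libraries, both in wild-type lung 23. In skin it read 0 and 21.8 CPM in wild type and 6.48, 0.255 and 1.56 CPM in Rel -/-. Pooled over libraries, skin was 325-fold higher (95% counting interval 89.2 to 2701, counting error only; adjusted p = 0.0114 with edgeR's quasi-likelihood test). Hoxa9 passed the filter only through skin, so it had to differ and its call supports nothing further. The call was lost without wild-type skin 22 and with limma-voom (adjusted p = 0.0698). Without skin 22 the lone wild-type skin library was at 0, so that fit cannot judge the Rel -/- skin values. Wild-type skin 22 was also the only library with Hoxa10 above 0.336 CPM, at 13.5 CPM, and the only library with counts of Hoxa11, 4 in all. Hoxa10 read 0, 0.0529, 0, 0 and 0 CPM for wild-type lung, 0, 0, 0 and 0.336 CPM in Rel -/- lung and 0.209, 0 and 0 CPM in Rel -/- skin; it did not pass the filter. Wild-type skin 11, the other library of the group, had 0 counts of all 3 posterior genes.

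The Hoxb cluster was expressed in both tissues, and most of its genes did not pass the test. Hoxb5, the paralogue of Hoxa5, was the exception: it read 24.8, 10.7, 16.7, 20.7 and 23.8 CPM for wild-type lung and 4.49, 16.4, 14.4 and 26.3 CPM in Rel -/- lung. Its skin values were 0 and 2.25 CPM in wild type and 7.15, 0.891 and 1.10 CPM in Rel -/-. Rel -/- skin 18, at 7.15 CPM, lay above Rel -/- lung 7, at 4.49 CPM; the remaining lung libraries lay above all skin libraries. The difference was -3.58 ± 1.00 (log2, SE; adjusted p = 0.0316, edgeR's quasi-likelihood test), and it was lost when any of 9 libraries was left out: wild-type lung 1, 3 or 5, Rel -/- lung 8, 9 or 10, wild-type skin 11, or Rel -/- skin 19 or 20 (adjusted p from 0.0506 to 0.0742).

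Hoxb2, Hoxb3 and Hoxb4, anterior and anterior-central genes that mark the hindbrain and neck level in the embryo, were read in both tissues and were not called in the edgeR fit of all libraries. Hoxb2 read 16.4, 13.9, 8.23, 7.51 and 10.3 CPM for wild-type lung and 18.3, 8.89, 12.1 and 12.9 CPM in Rel -/- lung. Its skin values were 6.80 and 6.01 CPM and 11.4, 11.6 and 10.6 CPM, within the range of lung except for wild-type skin 11 and 22, and the difference was -0.67 ± 0.48 (adjusted p = 0.468). Hoxb3 read 16.1, 28.0, 15.2, 32.9 and 19.6 CPM for wild-type lung, 11.1, 10.7, 11.5 and 16.3 CPM in Rel -/- lung, 23.8 and 5.26 CPM in wild-type skin and 2.09, 8.85 and 16.5 CPM in Rel -/- skin, with a difference of -0.64 ± 0.53 (adjusted p = 0.545; 0.0465 without the 4 libraries with most genes at 0). More than the other Hoxb genes, it shares its exons: 52.9% of Hoxb3 exon bases and 27.3% of those of Hoxb2 overlap a gene on the opposite strand, so both values are uncertain. Hoxb4, also known from blood stem cells, was the Hoxb gene with the highest per-kilobase mean in lung, at 8.35 ± 1.73 CPM per kilobase (SD, n = 9). It read 19.1, 19.6, 31.3, 16.4 and 24.0 CPM for wild-type lung and 18.1, 21.6, 19.4 and 23.3 CPM in Rel -/- lung, and 6.67 and 9.39 CPM in wild-type skin and 32.7, 12.5 and 10.3 CPM in Rel -/- skin. Of the 5 skin libraries, 4 lay below every lung library and Rel -/- skin 18, at 32.7 CPM, lay above all of them. The difference was -0.98 ± 0.40 (adjusted p = 0.147), and it was called without Rel -/- skin 18 (adjusted p = 0.048), without the 4 libraries with most genes at 0 (0.00971) and by DESeq2 (0.0439).

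Hoxb6, Hoxb7 and Hoxb8, central genes of the trunk, were read in both tissues with wide spread. Hoxb6 read 11.6, 7.94, 8.62, 0 and 10.4 CPM for wild-type lung, 2.73, 7.14, 11.8 and 14.5 CPM in Rel -/- lung, 0 and 7.13 CPM in wild-type skin and 1.95, 1.66 and 5.95 CPM in Rel -/- skin (-1.59 ± 1.26, adjusted p = 0.525). Hoxb7 read 1.76, 6.24, 5.13, 9.41 and 6.55 CPM, 0.0651, 5.43, 7.16 and 6.34 CPM, 0 and 4.88 CPM and 0.802, 1.72 and 4.93 CPM in the same groups (-1.34 ± 1.21, adjusted p = 0.6; 0.0373 with limma-voom). For both, wild-type skin 11 was at 0 and wild-type skin 22 lay within the range of lung. Hoxb8 read 8.43, 9.42, 8.78, 8.26 and 13.3 CPM for wild-type lung and 37.9, 3.25, 10.2 and 11.6 CPM in Rel -/- lung, with Rel -/- lung 7 far above the others, and 0 and 3.38 CPM in wild-type skin and 12.1, 3.25 and 16.3 CPM in Rel -/- skin. The skin difference was -1.80 ± 0.93 (adjusted p = 0.269). It was called without wild-type skin 22, but the lone wild-type skin library was then at 0. That fit cannot judge the Rel -/- skin values of Hoxb8.

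Hoxb9, the most posterior Hoxb gene at 1 CPM or more in any library, was on the skin side. In lung it read 0, 4.23, 3.55, 0 and 1.23 CPM in wild type and 6.70, 3.42, 1.61 and 0.817 CPM in Rel -/-. In skin it read 1.59 and 31.2 CPM and 23.4, 12.8 and 26.5 CPM. All skin libraries but wild-type skin 11 lay above all lung libraries, and the difference was 2.79 ± 1.09 (log2, SE; adjusted p = 0.128). It was called without the 4 libraries with most genes at 0 (adjusted p = 0.0165) and by DESeq2 (0.0391).

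Of the Hoxc genes, Hoxc6, Hoxc8 and Hoxc9 separated the tissues in every library, as did Hoxa5 and Hoxd8 of other clusters. The share of all genes that separate the tissues in this way was not computed. Hoxc8, a gene of the thoracic level of the trunk, was at 0 in 6 of 9 lung libraries and at most 0.94 CPM in the rest (Rel -/- lung 8). In skin it read 72.0 and 59.7 CPM in wild type and 44.4, 76.9 and 71.4 CPM in Rel -/-. The lowest skin library stood far above the highest lung library, and the difference was 9.33 ± 1.02 (log2, SE; adjusted p = 2.14e-05, edgeR's quasi-likelihood test). Hoxc6, also a thoracic gene, read 0, 0.900, 0, 0 and 0.664 CPM for wild-type lung and 0, 0, 0 and 0.144 CPM in Rel -/- lung. Its skin values were 60.5 and 47.3 CPM in wild type and 26.0, 40.0 and 42.4 CPM in Rel -/-, again without overlap, and the difference was 8.45 ± 1.17 (adjusted p = 0.000174). Hoxc9, the next gene toward the posterior end, had 0 counts in all 9 lung libraries. Skin read 45.1 and 18.8 CPM in wild type and 19.5, 18.5 and 20.2 CPM in Rel -/-, at least 1641-fold higher than a floor of 3 counts over all lung libraries (adjusted p = 0.000132). The 3 Rel -/- skin libraries agreed closely at 19.4 ± 0.865 CPM (SD, n = 3), while the 2 wild-type libraries lay further apart. Together with Hoxa5, these 3 genes were the HOX genes called in each genotype alone: 4 of 25 in wild type (3 higher in skin and 1 lower), where 2.97% of all genes were called (0.902% higher and 2.07% lower), and 4 of 25 in Rel -/- (3 higher and 1 lower), where 5.05% were called (1.82% higher and 3.23% lower). Hoxc8 and Hoxc9 passed the filter only through skin, so they had to differ and their calls support nothing further.

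The ends of the Hoxc cluster behaved differently from its middle. Hoxc4, a neck and forelimb-level gene, was read in both tissues, at 1.92, 1.16, 1.10, 1.85 and 1.80 CPM for wild-type lung and 4.82, 3.50, 0.911 and 1.06 CPM in Rel -/- lung. Its skin values were 15.2 and 11.3 CPM in wild type and 1.85, 3.76 and 4.07 CPM in Rel -/-, so the Rel -/- skin libraries lay within the range of lung and the wild-type ones above it (1.56 ± 0.76, adjusted p = 0.241). DESeq2 and limma-voom called Hoxc4 higher in skin (adjusted p = 0.0219 and 0.0248). Hoxc5 read 0, 0.370, 0.161, 0 and 2.23 CPM for wild-type lung, 12.6, 1.54, 1.22 and 0 CPM in Rel -/- lung, 14.5 and 6.38 CPM in wild-type skin and 15.4, 11.1 and 16.2 CPM in Rel -/- skin. A single lung library, Rel -/- lung 7, reached the skin range, and the difference was 2.98 ± 1.26 (adjusted p = 0.163; 0.0183 with limma-voom). Among the paralogues of number 5, then, Hoxa5 and Hoxb5 were lower in skin, and Hoxc5 had a positive difference that passed the test with limma-voom but not with edgeR.

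Hoxc10 and Hoxc13 were read in skin and varied between its libraries. Both passed the filter only through skin, so they had to differ and their calls support nothing further. Hoxc10, a posterior gene known from the hindlimb level, had 0 counts in lung and read 0 and 26.3 CPM in wild-type skin and 3.70, 5.16 and 1.25 CPM in Rel -/- skin. That is at least 221-fold above 3 counts over all lung libraries (adjusted p = 0.0142, edgeR's quasi-likelihood test). The call was lost without wild-type skin 22. All wild-type skin and lung counts were then 0. That fit cannot judge the Rel -/- skin libraries, which read 1.25 to 5.16 CPM. Hoxc13, a regulator of hair and nail formation, had 2 counts in lung, both in wild-type lung 23, and read 2.24 and 3.38 CPM in wild-type skin and 0.0349, 5.73 and 9.08 CPM in Rel -/- skin. Pooled skin was 325-fold above pooled lung (95% counting interval 89.2 to 2701; adjusted p = 0.00896), from the same totals of 268 and 2 counts as Hoxa9. Without Rel -/- skin 19 and 20 together the adjusted p of Hoxc13 was 0.18. Of the 15 keratinocyte markers, Krt5, Krt6a, Krt15, Dsc3 and Dsg3 were at 0 in all 9 lung libraries and Krt1 in all 14, while Cdh1 reached 27.5 CPM, Sfn 20.8 CPM and Perp 12.4 CPM in lung. The markers had their highest sum, 3302 CPM, in Rel -/- skin 18, which had the lowest Hoxc13 level of skin, 0.0349 CPM or 1 count. Cdh1, Perp, Sfn, Krt17, Dsc3 and Dsg3 were each highest in Rel -/- skin 20, which had the highest Hoxc13 level. The part of keratinocytes in the level of Hoxc13 was not tested.

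The Hoxd cluster was low, and Hoxd8 carried most of it. Hoxd8, a central trunk gene, read 0.314, 2.28, 0.968, 0 and 2.09 CPM for wild-type lung and 3.19, 2.18, 0.347 and 0.240 CPM in Rel -/- lung. Its skin values were 12.2 and 31.5 CPM in wild type and 20.4, 7.26 and 7.75 CPM in Rel -/-. All skin libraries lay above all lung libraries, with a difference of 3.48 ± 0.98 (log2, SE; adjusted p = 0.0316, edgeR's quasi-likelihood test). The call was lost when any of 8 libraries was left out: wild-type lung 3, Rel -/- lung 8, 9 or 10, wild-type skin 11 or 22, or Rel -/- skin 18 or 20 (adjusted p from 0.0502 to 0.0768).

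Hoxd9, a posterior gene active in limbs, read 0.157, 0.423, 0.387, 0 and 0.427 CPM for wild-type lung, 0 CPM in all 4 in Rel -/- lung, 0 and 3.00 CPM in wild-type skin and 0, 1.59 and 3.36 CPM in Rel -/- skin (5.01 ± 1.70, adjusted p = 0.0843). Hoxd4 was read in wild-type skin 22 at 0.751 CPM and in Rel -/- skin 18 at 5.86 CPM, with 1 count in lung (wild-type lung 5) and 0 in the other skin libraries; its adjusted p was 0.0625. Because 52.3% of its exon bases are shared with genes on the same strand, its counts are uncertain. Hoxd10 went the other way: 61 counts in lung, 53 of them in wild-type lung 1 and 8 in wild-type lung 23, and 0 in skin. That made pooled lung at least 7.69-fold higher than 3 counts over all skin libraries, but it did not pass the filter and was not tested.

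Markers of other cell types also differed between the tissues. The 12 macrophage markers were each read above 1 CPM in at least 1 library of every lung group, with none at 0 in all libraries of any group, and their sum in the lowest lung library (4494 CPM) was above that of the highest skin library (164 CPM). Of the 12 lung epithelial markers, the surfactant genes Sftpa1, Sftpb, Sftpc and Sftpd and the lung factor Nkx2-1 were at 0 in all skin libraries; the sum was 9.02 to 198 CPM for wild-type lung, 25.7 to 83.4 CPM in Rel -/- lung, 15.8 to 61.3 CPM in wild-type skin and 402 to 707 CPM in Rel -/- skin. In Rel -/- skin most of that sum came from the keratins Krt8 (up to 457 CPM) and Krt18 (up to 227 CPM), which other epithelia also express. The 8 skeletal muscle markers summed to 14.3 to 116 CPM for wild-type lung, 26.2 to 905 CPM in Rel -/- lung, 75.7 to 1016 CPM in wild-type skin and 556 to 934 CPM in Rel -/- skin. Myod1, the defining muscle factor, was at 0 in all lung libraries and ran from 5.81 to 34.96 CPM in skin. The highest lung sum was that of Rel -/- lung 7, the library with the highest Hoxb8 and Hoxc5 of lung, with Des at 573 CPM, Acta1 at 332 CPM and the other 6 markers at 0. The part of these cells in the HOX levels was not tested.

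The study compared Rel -/- with wild-type fibroblasts, and no HOX gene passed the test for this. In lung, 0 of 25 genes were called, against 0% of 16408 genes (edgeR's quasi-likelihood test); 2 of the 25 and 1036 of all genes had an unadjusted p under 0.05. DESeq2 called 51 genes and limma-voom 6, none of them a HOX gene. The 2 were Hoxc8, with 22 counts in Rel -/- lung 8 and 0 in the other Rel -/- libraries, and Hoxd9, with 33 counts in wild-type lung and 0 in Rel -/- lung. Their unadjusted p was 0.0362 and 0.0347, and both had an adjusted p of 0.781 in edgeR's quasi-likelihood test. Without Rel -/- lung 8 the sign of Hoxc8 turned, to -2.43. The well-expressed genes were estimated more closely: Hoxa5 was 46.3 ± 19.1 CPM (SD, n = 5) in wild-type and 39.8 ± 8.57 CPM (n = 4) in Rel -/- lung, a difference of -0.30 ± 0.62 (log2, SE). Hoxb4 was 22.1 ± 5.84 and 20.6 ± 2.31 CPM, a difference of -0.14 ± 0.45, and Hoxa7 was 8.75 ± 2.51 and 11.5 ± 2.405 CPM, a difference of 0.33 ± 0.64. The median of the 25 differences was -0.14, and that of all genes -0.08. Of the 25, Hoxc9 and Hoxc10 had 0 counts in lung, Hoxa9 and Hoxc13 had 2 each and Hoxd4 had 1. These genes could not be called in lung, though the count and the median include them.

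**Figure D5:**
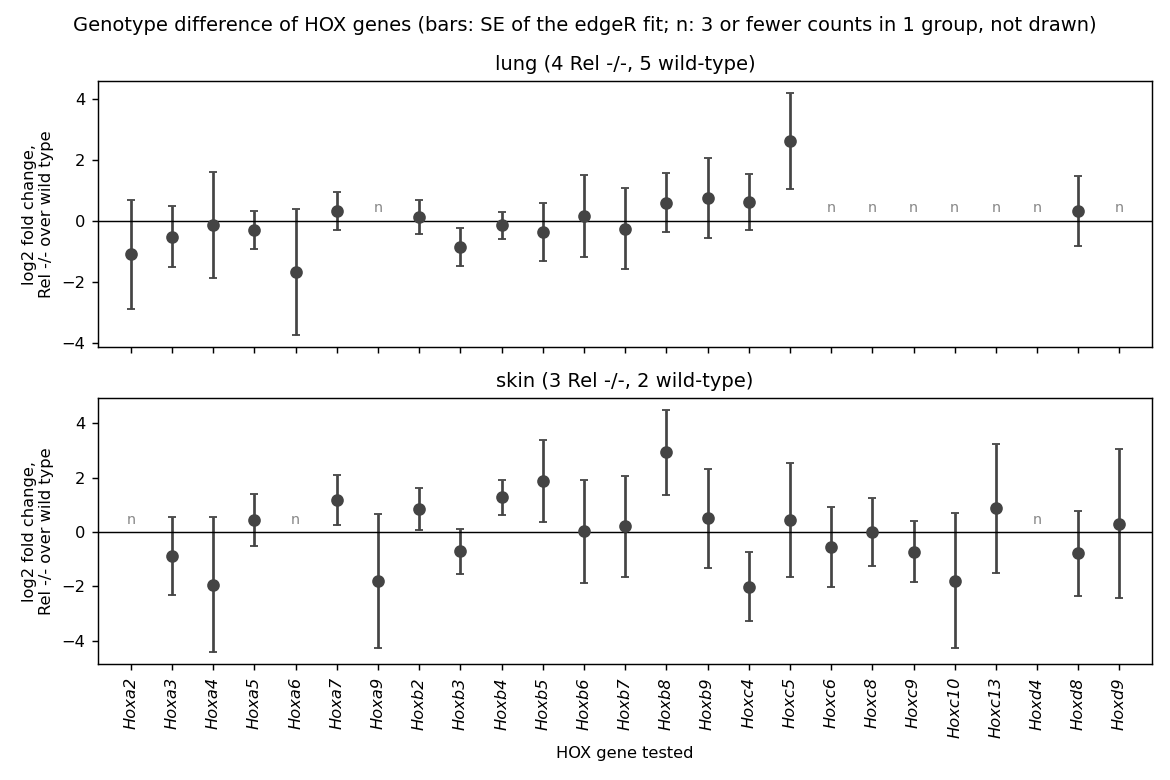
Points give the log2 fold change of Rel -/- over wild type with the SE for the HOX genes tested, in lung (upper panel) and skin (lower panel). Genes with 3 or fewer counts in 1 of the groups are marked n and not drawn; none of the 25 passed the test in either tissue.

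In skin, 0 of 25 HOX genes were called, against 0% of 16408 genes (edgeR's quasi-likelihood test); 0 of the 25 and 1024 of all genes had an unadjusted p under 0.05. DESeq2 called 153 genes and limma-voom 300, none of them a HOX gene. The lowest p belonged to Hoxb4, at 8.03 ± 1.92 CPM (SD, n = 2) in wild type and 18.5 ± 12.3 CPM (n = 3) in Rel -/-, a difference of 1.28 ± 0.65 (log2, SE; adjusted p = 0.784 with edgeR's quasi-likelihood test). Hoxb8 followed with 1.69 ± 2.39 and 10.6 ± 6.66 CPM, a difference of 2.93 ± 1.56 (adjusted p = 0.784). The skin genes Hoxc6, at 53.9 ± 9.30 and 36.1 ± 8.85 CPM, and Hoxc8, at 65.9 ± 8.73 and 64.2 ± 17.4 CPM, gave -0.55 ± 1.48 and -0.0032 ± 1.25 (log2, SE). Such errors do not show that the genotypes were alike: a change of a few fold in either direction lies within them. The 15 keratinocyte markers summed to more in all 3 Rel -/- skin libraries than in wild-type skin (1313 to 3302 against 35.3 to 56.7 CPM). Trp63 and Krt10 were instead highest in wild-type skin 22, at 6.01 and 3.00 CPM, and Krt1 was at 0 throughout. The part of keratinocytes in these values was not tested. Without wild-type skin 22, which leaves wild-type skin 11 as the lone wild-type library and takes its spread from the other groups, Hoxa5 and Hoxb8 were called higher in Rel -/-, among 421 of the 17818 genes then tested; skin 11 held 3 counts of Hoxa5 and 0 of Hoxb8.

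The difference of the genotype effect between skin and lung was tested as an interaction. Hoxc9 and Hoxc10, at 0 in all lung libraries, allow no such estimate. No HOX gene was called (0 of 25, against 0% of all genes; 0 of the 25 and 766 of all genes had an unadjusted p under 0.05, edgeR's quasi-likelihood test), and DESeq2 called 100 and limma-voom 174 genes, none of them HOX. Without wild-type skin 22 the count was 2, Hoxa5 and Hoxb8, among 370 of 17818 genes.

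Of 9 genes of the TALE family, the PBX, MEIS and PREP cofactors that bind DNA beside HOX proteins, 0 passed the test between skin and lung. Of all genes tested, 10.4% passed (4.26% higher and 6.17% lower in skin), the share to hold against this list and those that follow. Meis1 was 37.9 ± 15.9 CPM in lung (SD, n = 9) and 15.9 ± 7.51 CPM in skin (n = 5), a difference of -1.33 ± 0.43 (adjusted p = 0.0622), and it was called without Rel -/- lung 7 (adjusted p = 0.00114) and by DESeq2 (0.0155). Pknox2 came next with -1.14 ± 0.83 (adjusted p = 0.481).

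Of 24 Polycomb and trithorax genes, whose products keep HOX genes off or on through histone marks, 1 was called, against 10.4% of all genes tested. Cbx6, a Polycomb subunit, was lower in skin: 237 ± 60.8 CPM in lung and 104 ± 13.9 CPM in skin, a difference of -1.38 ± 0.26 (adjusted p = 0.00245), with no overlap between 136 to 299.8 CPM in lung and 91.8 to 126 CPM in skin. The catalytic subunit gene Ezh2 was 16.4 ± 7.16 CPM in lung and 14.0 ± 7.36 CPM in skin (-0.38 ± 0.50, adjusted p = 0.757).

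Genes of retinoic acid, a signal that switches on anterior HOX genes in embryos, differed in both directions. Of 17 genes listed, which include Cdx1, Cdx2 and Cdx4 as HOX activators, 13 were tested, 3 were called higher and 3 lower in skin. The synthesis enzyme Aldh1a2 was 125 ± 40.0 CPM in lung and 1.24 ± 1.18 CPM in skin (-7.03 ± 0.68, adjusted p = 7.79e-06), and Aldh1a1 was 101 ± 48.5 and 17.1 ± 7.63 CPM (-2.68 ± 0.45, adjusted p = 0.000974). Higher in skin were Aldh1a3, another synthesis enzyme, with 2.77 ± 2.77 CPM in lung and 52.3 ± 43.7 CPM in skin (3.31 ± 0.72, adjusted p = 0.00741), and Crabp1, a retinoic acid carrier, with 5.52 ± 5.36 and 578 ± 503 CPM (5.79 ± 0.77, adjusted p = 0.000132). Cyp26b1, which degrades retinoic acid, was 16.8 ± 7.01 CPM in lung and 102 ± 73.6 CPM in skin (2.14 ± 0.40, adjusted p = 0.00249). So 2 of the synthesis enzymes were lower in skin and 1 was higher. With limma-voom the call of Aldh1a1 was lost (adjusted p = 0.103).

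Genes that mark lung or skin, most of them transcription factors of mesenchyme, differed as well: of 10 listed, 9 were tested, 4 were lower and 3 higher in skin. Tbx4, a lung mesenchyme gene, was 54.2 ± 31.4 CPM in lung and 1.16 ± 1.38 CPM in skin (-6.34 ± 1.12, adjusted p = 0.00152), and Tbx2 was 36.8 ± 14.7 and 1.13 ± 1.59 CPM (-6.06 ± 1.17, adjusted p = 0.003). Foxf1 (-2.52 ± 0.66, adjusted p = 0.0218) and Tbx5 (adjusted p = 0.038) were lower too. Twist2, a dermal gene, was 5.01 ± 5.27 CPM in lung and 321 ± 136 CPM in skin (6.18 ± 0.77, adjusted p = 6.94e-05), Tbx15 was 2.03 ± 2.28 and 93.4 ± 43.4 CPM (5.38 ± 1.06, adjusted p = 0.00351), and En1, a gene of dorsal dermis, was 1.64 ± 2.74 and 41.9 ± 14.1 CPM (4.53 ± 1.18, adjusted p = 0.0208). The call of Foxf1 was lost without wild-type skin 22 (0.0596), without Rel -/- skin 20 (0.0545) and with limma-voom (0.153), and that of En1 without wild-type skin 11 (0.052).

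Other genes annotated inside the clusters, chiefly noncoding, were mostly too low to test: 11 of 43 were tested. Hoxb5os, antisense to Hoxb5, was 3.98 ± 2.38 CPM in lung and at most 0.376 CPM in skin (adjusted p = 0.0213), so it was lower in skin like Hoxb5 itself. Gm53, a long noncoding gene, was 0.289 ± 0.503 CPM in lung and 12.3 ± 5.58 CPM in skin (5.35 ± 1.51, adjusted p = 0.0321). The call of Hoxb5os was lost without wild-type skin 11 (adjusted p = 0.111), and that of Gm53 without any of 6 libraries: wild-type lung 3, Rel -/- lung 8 or 10, wild-type skin 11, or Rel -/- skin 18 or 20 (0.0558 to 0.0669). Hotair, a noncoding RNA of the Hoxc cluster known from posterior skin in humans, was at 0 in lung and at most 0.751 CPM in skin. Of the protein-coding genes that flank the clusters, 7 of 11 were tested and Skap2, next to Hoxa, was lower in skin: 135 ± 36.0 CPM in lung and 49.4 ± 7.53 CPM in skin (-1.60 ± 0.25, adjusted p = 0.000411). Hibadh, on the other side of Hoxa, was 60.2 ± 8.81 and 53.9 ± 3.52 CPM (-0.32 ± 0.18, adjusted p = 0.319). No gene of these 6 lists was called between genotypes in either tissue.

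Over the HOX genes alone, libraries fell by tissue. The correlation of log2(CPM + 1) over the 38 genes had a median of 0.925 between lung libraries (0.770 to 0.983 over 36 pairs), 0.802 between skin libraries (0.658 to 0.948 over 10 pairs) and 0.267 between a lung and a skin library (0.0052 to 0.497 over 45 pairs). These are descriptions over genes, which are not independent, and pairs share libraries. No lung pair fell below the highest value between tissues, and neither did any skin pair.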

How the data were processed

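RNA from 14 fibroblast cultures was sequenced with a directional kit, per the labels' protocols. The deposited values are raw read counts per Ensembl gene, made with STAR 2.4.2a, FastQC 0.11.2 and Trimmomatic 0.33 on GRCm38 as far as the submitters' processing notes list tools. How reads were assigned to genes, with which annotation and strand setting, is not given in the sources used here. Symbols, exon lengths and overlaps were taken from GENCODE M21, and promoters from RefSeq.

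CPM was computed on raw library totals, and per-kilobase levels divide it by merged exon length. All 14 libraries were fitted together with 4 group means in edgeR 4.0.16 (R 4.3.3; TMM, filterByExpr with a minimum count of 10 and a minimum total of 15), which tested 16408 genes with Benjamini-Hochberg adjustment at 0.05. The script was tested on simulated data with less spread between libraries than these data. That checked the code, not its error rates here. Alternatives were other scalings and filters, DESeq2 1.42.0, limma-voom (limma 3.58.1), fits of the groups compared alone, and libraries left out. Floors use 3 counts over the group, and intervals at the 95% level cover counting error only.

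The HOX genes and the gene lists were chosen with earlier results of these data known. HOX genes with a mean of at least 1 CPM in a group were given in every library. Of the lists, at most the 6 called genes of lowest adjusted p were named, or the 2 of lowest adjusted p where none was called; Ezh2, Hotair, Hibadh and Tbx5 were added after their values were seen. Some genes of these lists are not reported here.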

Additional observations from a re-analysis of the deposited data

Results flagged for a closer look

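In 4 of the 33 sets of lung values tested (1 gene in 1 lung group), 1 library stood apart by a gap that was large against the range of its group; chance gives about 1 in 20. Hoxb8 reached 13.34 CPM in wild-type lung 5, against 8.26 to 9.42 CPM in the other wild-type lung libraries. Hoxc5 in the same library was 2.23 CPM, against at most 0.370 CPM. In Rel -/- lung, Hoxc5 reached 12.56 CPM in library 7, against at most 1.54 CPM. Hoxb3 was 16.29 CPM in Rel -/- lung 10, against 10.7 to 11.5 CPM in the other 3. The skin groups hold too few libraries for this check.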

How the results depend on the processing

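No paired analysis was possible because the groups share no replicate numbers. Between skin and lung over both genotypes, 10 HOX genes were called; leaving out 1 library at a time gave 7 to 10, leaving out the 4 libraries with most genes at 0 gave 16, and leaving out Rel -/- skin 19 and 20 gave 5. Over all genes the calls were 1711, and 1057 to 2281, 2612 and 1011 under those alternatives. Hoxa5, Hoxc6, Hoxc8 and Hoxc9 were called in all 23 alternatives run for this comparison. Hoxc9 had 0 counts in lung, and Hoxc8 had 25, of which 22 lay in Rel -/- lung 8. Both passed the filter only through skin, so they had to differ and their calls support nothing further. In wild type alone, the 4 calls became 11 with DESeq2, 8 without the 4 libraries with most genes at 0, 7 without the 2 libraries with Xist, and 3 to 7 with 1 library left out; over all genes, 487 calls became 1233, 858, 1044 and 258 to 1050. In Rel -/- alone, the 4 became 8 with DESeq2, 15 with limma-voom, 11 without those 4 libraries and 3 to 7 with 1 library left out; over all genes, 5.05% were called in the fit of all libraries, and 1770, 4501, 2171 and 410 to 1323 genes under these alternatives. Between genotypes, the count in lung was 0 in all 24 alternatives; in skin it was 0 to 2 with 1 library left out and 2 without the 2 libraries with Xist, where all genes gave 0 in the fit of all libraries, 0 to 421 and 439. The interaction gave 0 to 2 with 1 library left out and 1 without those 2, where all genes gave 0, 0 to 370 and 365. Hoxc8 between genotypes in lung ran from -2.43 to 3.95 (log2) with 1 library left out, and its sign turned without Rel -/- lung 8 (adjusted p = 0.907), the library with all Rel -/- counts of the gene; for the other results the cause was not tested. Of the values of single genes under alternatives, 1175 kept direction and side of the threshold, 68 lost the call, 22 gained it and 1 changed sign. Without wild-type skin 22 the median of all genes moved from -0.07 to -0.37 (log2) between tissues and from 0.01 to 0.40 between genotypes in skin. That library's depth of 2663437 counts makes 3 counts equal to 1.13 CPM, so lower levels could not be told from 0 there.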

Other observations

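Low counts of posterior and skin-side HOX genes were scattered over the lung libraries. Wild-type lung 23 held 17 counts of Hoxc6, 2 of Hoxc8, 2 of Hoxc13, 2 of Hoxa9 and 1 of Hoxa10. Rel -/- lung 10 held 7 counts of Hoxa10, 3 of Hoxa13, 3 of Hoxc6 and 8 of Hoxd13, and Rel -/- lung 9 held 5 of Hoxd13. In skin, 168 of the 170 counts of Hoxd4 came from Rel -/- skin 18. No test was made on these counts.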
